A study of Mus musculus with 26 samples.

Results

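Cluster 8 is 1 of the 4 stromal clusters that the authors' unsupervised clustering found among 13 clusters of mouse RPE/choroid cells, the retinal pigment epithelium (RPE) together with the vascular and stromal layer behind it. Its members were all cells carrying that cluster number in the deposited annotation: 160 of 3637 cells (4.40%, exact 95% interval 3.76 to 5.12) of the B6129PF1/J library and 160 of 3928 cells (4.07%, 3.48 to 4.74) of the C57BL/6J library, so 320 of 7565 cells in all. They made up 9.23% of the 1734 stromal cells of B6129PF1/J and 9.09% of the 1760 of C57BL/6J. The working name calls them the stromal fibroblasts with the highest Pdgfra and lists Cpxm1 and Gli1 as further markers. Pdgfra stood above every other cluster clearly in B6129PF1/J but by less than counting error in C57BL/6J, and neither Cpxm1 nor Gli1 exceeded both cluster 5 and cluster 7 by more than counting error in either library, so the cells are called here by their cluster number.

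Each scRNAseq library pooled 1 eye of a male and 1 eye of a female mouse, 90 d old, of the B6129PF1/J or the C57BL/6J strain. Nucleated living cells, stained by Hoechst and not by TO-PRO-3, were sorted and loaded on the 10x Genomics Chromium platform, which counts unique molecular identifiers (UMIs) at the 3′ end of transcripts. With 1 library per strain there is no replicate, so strain, animals and library cannot be told apart and nothing was tested between them. The same study deposited bulk RNAseq of 6-month-old RPE/choroid from Ihh iΔEC/iΔEC mice, which lost Indian hedgehog in endothelial cells through the tamoxifen-induced Cdh5-CreERT2 driver, taken 12 weeks after tamoxifen, and from Ihh+/+ controls that carried the same Cre and received the same drug. It also holds cultured choroidal GLI1+ cells, sorted by GFP from pooled female Gli1GFP/+ mice (strain label SWR/J), expanded and grown for 24 h with 100 nM SAG, an agonist of the Hedgehog transducer Smoothened, or with its solvent DMSO. The paper states that the Gli1GFP/+ animals, generated in SWR/J, were outcrossed with BALB/c mice and intercrossed before they were characterized. Each of these 4 bulk groups had 3 samples, of which only the authors' average is used here. The Ihh+/+ controls were littermates, and mice of both sexes were used. The paper calls the pigmented Ihh iΔEC/iΔEC line C57BL/6J-derived.

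Fibroblasts of the choroidal stroma lie among vessels and melanocytes and lay down and remodel collagens and proteoglycans. PDGFRA, a receptor tyrosine kinase for platelet-derived growth factors, is a common marker of fibroblasts and is low in pericytes, which carry PDGFRB. Hedgehog ligands bind PTCH1 and release Smoothened, and GLI1 is both an effector and a target gene of the pathway, so that Gli1, Ptch1 and Hhip transcripts are widely read as its output.

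The genes that lead cluster 8 in both libraries were Col15a1, which encodes the collagen XV chain of basement membrane zones, and Il33, which encodes a nuclear cytokine of the IL-1 family that is released as an alarm signal. Col15a1 lies on chromosome 4 (47208161 to 47313167, plus strand) and Il33 on chromosome 19 (29925114 to 29960718, plus strand) in GENCODE annotation of GRCm38. Their promoters are printed because these are the only 2 genes with at least 20 UMIs that stood at least 2 times above each of the other 12 clusters in both libraries. The 300 bases run from 250 before to 50 after each RefSeq transcription start on GRCm38.p6, at chr4:47207762-47208061 for Col15a1 and at chr19:29924863-29925162 and chr19:29945540-29945839 for the start sites of Il33, all on the plus strand. Capitals mark a TATA box.
Col15a1 promoter: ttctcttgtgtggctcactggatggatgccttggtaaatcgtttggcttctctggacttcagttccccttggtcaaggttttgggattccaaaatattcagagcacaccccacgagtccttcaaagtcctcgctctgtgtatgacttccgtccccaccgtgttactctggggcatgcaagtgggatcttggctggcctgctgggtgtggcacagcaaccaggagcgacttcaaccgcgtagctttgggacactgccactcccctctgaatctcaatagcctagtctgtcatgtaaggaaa
Il33 promoter, upstream start: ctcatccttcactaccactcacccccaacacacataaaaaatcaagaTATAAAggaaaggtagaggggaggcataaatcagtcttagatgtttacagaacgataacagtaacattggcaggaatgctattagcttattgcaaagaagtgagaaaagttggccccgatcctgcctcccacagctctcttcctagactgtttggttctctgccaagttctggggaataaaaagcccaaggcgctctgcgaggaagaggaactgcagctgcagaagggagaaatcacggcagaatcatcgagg
Il33 promoter, downstream start: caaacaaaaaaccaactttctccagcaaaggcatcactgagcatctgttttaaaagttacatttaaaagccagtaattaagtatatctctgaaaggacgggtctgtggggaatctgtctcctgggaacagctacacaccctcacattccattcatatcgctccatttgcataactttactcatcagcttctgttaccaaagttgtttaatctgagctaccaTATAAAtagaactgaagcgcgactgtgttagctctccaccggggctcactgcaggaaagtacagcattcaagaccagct
The letters searched on both strands were the AP-1 site TGANTCA, the TATA box TATAAA, the GC box GGGCGG and the GLI core CCACCCA, which were present in 7.81%, 13.6%, 35.7% and 9.30% of 32851 mouse promoters of this length. The Col15a1 window held none of these letters. The upstream Il33 window held the TATA letters at -203 and the downstream window at -29, counted from the start site, and neither held any of the other motifs. None of these motifs overlaps another within these windows.

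Levels below are the summed UMIs of a gene over the cells of a cluster per 10,000 UMIs of that cluster in 1 library. Intervals are exact Poisson 95% intervals, or exact conditional binomial ones for a ratio of levels, and cover counting error only. The cells had been grouped on these same genes, so every comparison of cluster 8 with another cluster is a description. Cluster 8 held 632208 UMIs in B6129PF1/J and 477603 in C57BL/6J, and its median cell had 3741 UMIs on 1624 genes and 2835.5 UMIs on 1345 genes. A gene counted as leading when it had at least 20 UMIs in cluster 8 and at least 2 times the level of each other cluster in both libraries: 2 of 3286 genes with 20 UMIs did (0.0609%). On the deposited averages over cells Il33 did and Col15a1 did not. With the other stromal clusters 5, 6 and 7 alone as the reference, 6 of the 3286 genes did (0.183%), namely Col15a1, Il33, Itih5, Slc1a3, D630003M21Rik and Cited1. Only 2 of 4058 genes with 20 UMIs in each of clusters 5, 6 and 7 (0.0493%) were at no more than 1/2 of each of them, Omd and Ogn.

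Col15a1 reached 2.5 UMIs per 10,000 (95% interval 2.12 to 2.92, 158 UMIs) in B6129PF1/J and 1.82 (1.46 to 2.25, 87 UMIs) in C57BL/6J. Endothelial cluster 2 came next with 1.12 and 0.657, so both libraries put the gene at 2.24 and 2.77 times the nearest cluster. Among stromal clusters its margin was far wider: the level was 13.7 and 6.91 times that of cluster 5, and 10.6 and 6.69 times that of cluster 7. Its transcripts were spread over 50.6% and 33.1% of the cells of cluster 8. In hematopoietic cluster 11, which should lack the gene, Col15a1 was detected in 0 of 106 cells, which allows a share of up to 2.83%, and in 1.57% of cells, although the median cell there was deeper (5047.5 and 3977 UMIs). Thinned to 1700 UMIs per cell, the shares in cluster 8 were 31.2% and 19.4% and those in cluster 2 were 15.7% and 9.18%.

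Il33 stood at 2.82 UMIs per 10,000 (2.42 to 3.26, 178 UMIs) and 2.22 (1.82 to 2.68, 106 UMIs) in cluster 8. The next cluster differed between the libraries: cluster 5 in B6129PF1/J, at 0.658, and cluster 7 in C57BL/6J, at 1.06. Outside the stroma the cytokine was nearly absent, with a highest level of 0.0600 in RPE cluster 1 of B6129PF1/J and 0.0964 in melanocyte cluster 10 of C57BL/6J. A UMI of Il33 was found in 45.6% and 35.6% of the cells of cluster 8, against 0.943% and 0% of cluster 11, where 0 of 127 cells allows up to 2.36%. The 5 cells richest in Il33 held 23.6% and 29.2% of its UMIs. These cells were chosen on the gene itself and after seeing the data. Without them Il33 was at 3.43 (2.74 to 4.27) and 1.53 (1.08 to 2.18) times the next cluster, in place of 4.28 and 2.1. The next cluster kept all its cells, so this step could only lower the ratio. The same step left Col15a1 at 1.91 (1.52 to 2.38) and 2.08 (1.51 to 2.85) times cluster 2, under 2 times in B6129PF1/J.

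**Figure D1:**
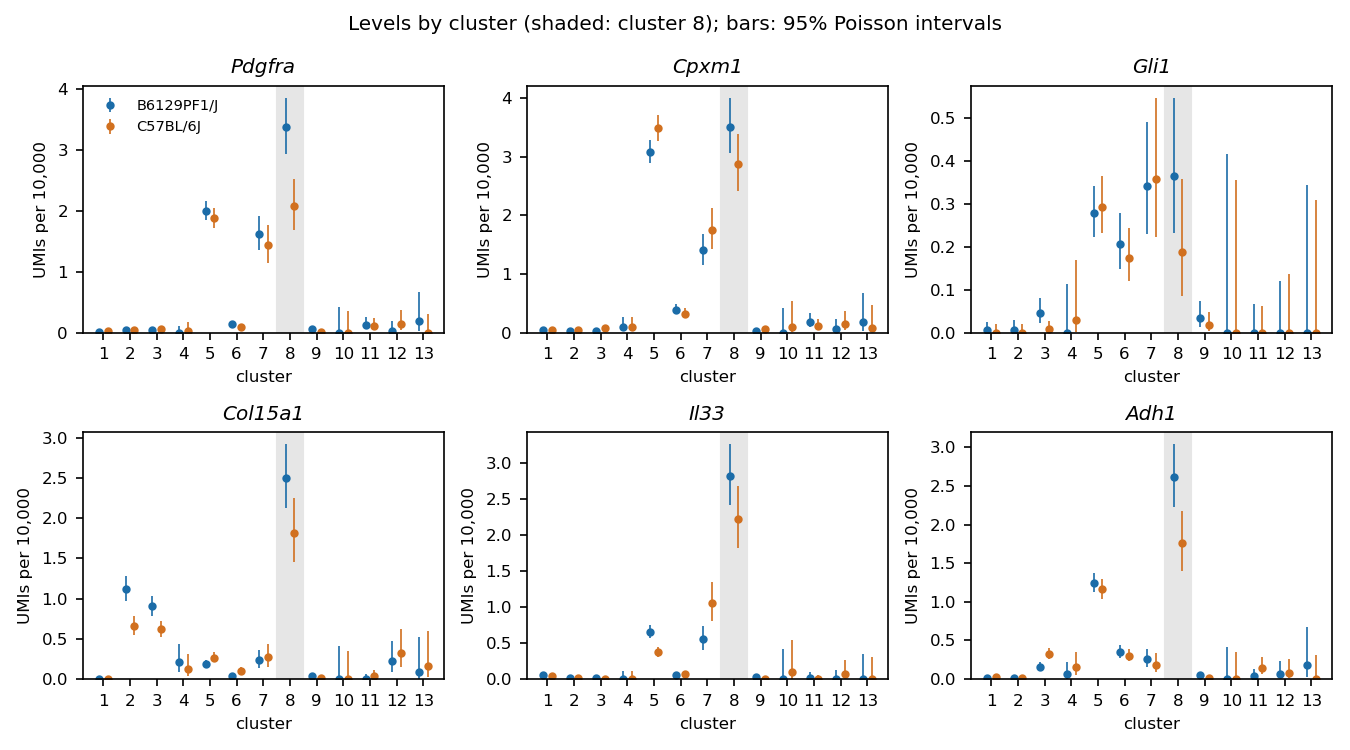
Levels of Pdgfra, Cpxm1, Gli1, Col15a1, Il33 and Adh1, in summed UMIs per 10,000, in each of the 13 clusters of both libraries with exact Poisson 95% intervals; cluster 8 is shaded. Col15a1 and Il33 peak in cluster 8 in both libraries, Pdgfra only clearly so in B6129PF1/J.

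The other genes above each stromal neighbour were lower in copy number or had a second site of expression. Itih5, which encodes a heavy chain of the inter-alpha-trypsin inhibitor family that binds hyaluronan, had 3.20 UMIs per 10,000 (2.77 to 3.67) and 1.95 (1.57 to 2.39) in cluster 8, at 11.4 and 8.30 times cluster 5 and at 2.1 and 2.33 times cluster 7. Schwann cell cluster 13 had 2.42 and 2.92, so in C57BL/6J Itih5 was higher there. Slc1a3, the glial glutamate and aspartate transporter, reached 0.633 and 0.691, from 40 and 33 UMIs, or 3.46 and 3.54 times cluster 5. D630003M21Rik gave 0.348 and 0.440 from 22 and 21 UMIs. Cited1, a transcriptional coregulator of melanocytes, had 21 UMIs in each library (0.332 and 0.440), while melanocyte cluster 10 had 14.3 and 16. The Cited1 ratio was 2.01 (0.977 to 4.28) to cluster 7 in B6129PF1/J and 2.54 (1.44 to 4.32) to cluster 5 in C57BL/6J. Only the latter exceeded counting error. Any Cited1 UMI was found in only 10 cells in B6129PF1/J and 15 in C57BL/6J, and 76.2% of those of B6129PF1/J were in 5 cells. The melanocyte markers Mlana, Pmel, Tyrp1, Dct and Mitf summed to 0.490 and 0.398 in cluster 8, 0.0858% and 0.0700% of their level in cluster 10, and the part of melanocyte RNA in the Cited1 count was not tested.

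The named markers behaved unlike each other. Pdgfra was at 3.37 UMIs per 10,000 (2.93 to 3.85, 213 UMIs) in B6129PF1/J, against 2.00 in cluster 5, 0.137 in cluster 6, where the pericyte markers peaked, and 1.61 in cluster 7. In C57BL/6J it was at 2.07 (1.68 to 2.52, 99 UMIs), against 1.88, 0.0894 and 1.43. The ratio to cluster 5 was 1.68 (1.44 to 1.97) and 1.10 (0.880 to 1.37), so the order of clusters 8 and 5 was set by more than counting error only in B6129PF1/J. The share of cells with a Pdgfra UMI was 61.2% and 44.4% in cluster 8, and 2.83% and 3.94% in cluster 11. After thinning it was 38.1% and 31.9%, against 25.7% and 23.2% in cluster 5.

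Cpxm1, which encodes a carboxypeptidase-like protein of the extracellular matrix, gave 3.51 (3.06 to 4.01) in B6129PF1/J and 2.87 (2.41 to 3.39) in C57BL/6J. Cluster 5 had 3.08 and 3.48, which places cluster 8 at 1.14 times (0.981 to 1.32) and 0.824 times (0.684 to 0.987) its level. Gli1 was sparse, with 23 UMIs (0.364) and 9 UMIs (0.188) in cluster 8. Cluster 7 had 0.342 and 0.357 and cluster 5 had 0.277 and 0.292, and the ratio to the higher of them was 1.07 (0.589 to 1.91) and 0.527 (0.213 to 1.20). At this depth no difference in Gli1 between cluster 8 and clusters 5 and 7 was detectable. Pdgfra lies on chromosome 5 (75152292 to 75198215, plus strand), Cpxm1 on chromosome 2 (130390775 to 130397574, minus strand) and Gli1 on chromosome 10 (127329882 to 127341974, minus strand).

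Markers of other cell types were low in cluster 8, while those of fibroblasts were high. The 9 fibroblast markers summed to 164 and 182 UMIs per 10,000, second to cluster 7 (265 and 301), and none was at 0. The 7 pericyte markers summed to 4.56% and 3.80% of their level in cluster 6, with Higd1b at 0 UMIs in both libraries, the 5 smooth muscle markers to 1.14% and 1.15% of cluster 9, and the 7 endothelial markers to 0.607% and 0.658% of cluster 2. Ptprc and Tyrobp, which mark hematopoietic cells, had 0 UMIs in both libraries, and the 6 hematopoietic markers stood at 0.0762% and 0.0689% of cluster 11. The 6 Schwann cell markers stood at 0.208% and 0.247% of cluster 13, and the 7 scleral and tendon markers at 2.15% and 5.03% of cluster 7, with Scx and Chad at 0. The 4 cartilage and bone markers, Acan, Col2a1, Bglap and Ibsp, were not among the genes of the counts, so they had no level. RPE markers were the exception by library: they summed to 18.3 in B6129PF1/J and 5.82 in C57BL/6J, or 1.25% and 0.426% of RPE cluster 1. In B6129PF1/J the 5 cells with the most RPE marker UMIs held 72.7% of them, and without these the sum was 5.19; in C57BL/6J it was then 3.67. The 7 markers listed for meningeal and arachnoid cells summed to 9.93 and 2.64, of which Ptgds, also an RPE transcript, gave 9.55 and 2.16. Only 1 cell of B6129PF1/J and 0 of C57BL/6J had a UMI of both Xist and a Y-linked gene, which can mark doublets of the pooled sexes, and no cell was removed. The libraries shared 22 cell barcodes in all, of which 0 belonged to a cell of cluster 8.

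Cluster 5, the largest stromal cluster with 1687 cells, was the nearest to cluster 8. Over the 3489 genes with at least 20 UMIs expected in cluster 8 at the pair's common level in both libraries, the log levels of clusters 8 and 5 correlated at r = 0.960 in B6129PF1/J and 0.961 in C57BL/6J, across genes of 1 library that share its depth. Against cluster 6 the r was 0.812 and 0.797, and against cluster 7 it was 0.881 and 0.855. At 1.5 times in both libraries, 56 genes were higher (1.61%) and 131 lower (3.75%) in cluster 8 than in cluster 5. Against cluster 6, 308 of 3533 genes (8.72%) were higher and 500 (14.2%) lower, and against cluster 7, 203 of 3490 (5.82%) were higher and 294 (8.42%) lower. The direction opposed between libraries in 2, 7 and 9 genes past that fold.

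Among the genes higher in cluster 8 than in cluster 5, Htra3, a secreted serine protease, was at 2.25 and 2.37 in cluster 8, 9.91 and 8.62 times cluster 5. Apod, a lipocalin that carries lipids, was at 26.7 and 29.8, or 8.12 and 7.64 times cluster 5. Against cluster 7 the ratios were 1.34 and 1.09 for Htra3 and 1.06 and 0.854 for Apod. Much of the Apod came from 5 and 7 cells, and the other cells of cluster 8 were at 14.5 and 15.9 against 25.2 and 34.9 over all cells of cluster 7. Thbd, the thrombin receptor thrombomodulin, was at 4.94 and 3.30 times cluster 5, Crispld2 at 3.48 and 2.21 times, and Tmem100, a membrane protein downstream of BMP signalling in endothelium, at 2.86 and 2.54 times. Entpd2, an ectonucleotidase, had 1.61 and 1.42 against 0.387 and 0.509. Htra3 was thus less than 1.5 times apart from cluster 7, whereas Col15a1 and Il33 stood at least 2 times above it.

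Other genes were lower in cluster 8 than in cluster 5. Pappa2, a protease of insulin-like growth factor binding proteins, had 1 UMI and 0 UMIs in cluster 8 and a level of 0.970 and 0.762 in cluster 5. Alpl, tissue-nonspecific alkaline phosphatase, was at 1.15 and 1.26 against 4.25 and 4.22. Angpt1, the TIE2 ligand angiopoietin 1, was at 1.30 and 0.775 against 3.15 and 2.34, and Col8a1 at 1.36 and 1.15 against 3.46 and 3.55. These genes kept low counts in cluster 8 rather than none, apart from Pappa2.

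**Figure D2:**
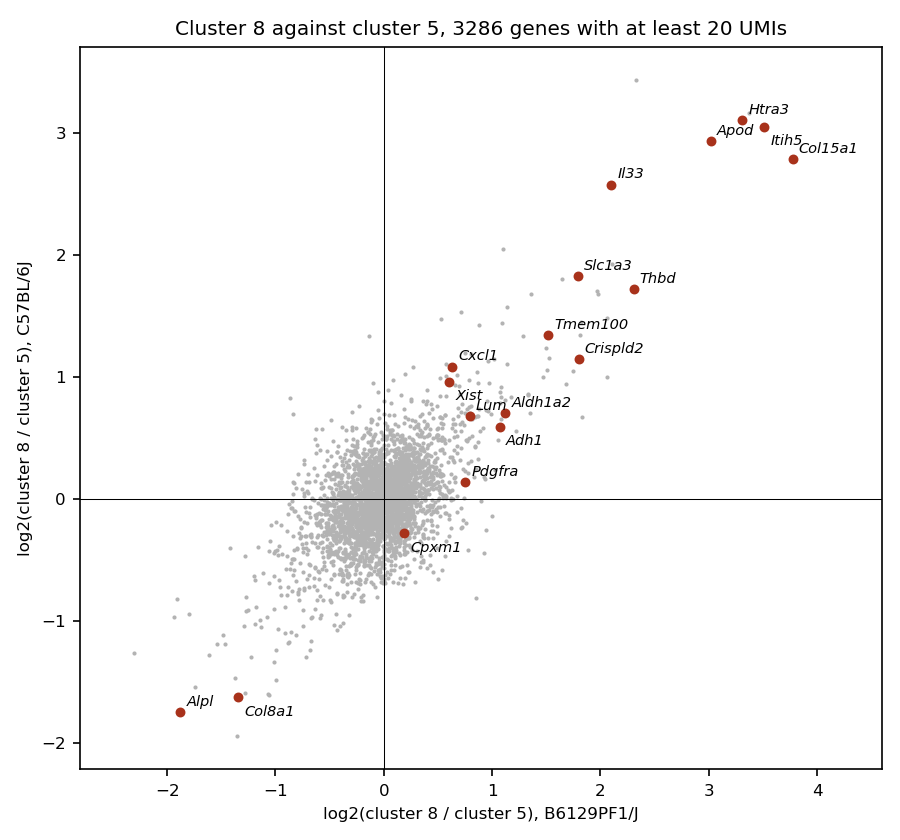
The log2 ratio of levels in cluster 8 to cluster 5 in B6129PF1/J (x axis) and in C57BL/6J (y axis) for the 3286 genes with at least 20 UMIs in cluster 8; each point is 1 gene and red points are named. Col15a1, Itih5, Htra3, Apod and Il33 lie among the points farthest toward the upper right, and Pdgfra and Cpxm1 lie near the centre.

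Against clusters 6 and 7 the contrasts were of other kinds. Rgs5, the pericyte regulator of G protein signalling, was at 95.9 and 93.0 in cluster 6 and at 0.981 and 0.503 in cluster 8, while Pdgfra was 24.6 and 23.2 times as high in cluster 8. Pi16, a marker of adventitial fibroblasts in many tissues, was at 10.6 and 24.6 in cluster 7 and at 0.111 and 0.0838 in cluster 8. Dpt, dermatopontin, had 0 UMIs in cluster 8 of both libraries and was at 0.883 and 1.65 in cluster 7. The Wnt inhibitor Sfrp2 had 3 UMIs and 0 UMIs in cluster 8 and was at 4.83 and 2.89 in cluster 7.

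Taken over clusters 5, 6 and 7 at once, 15 of 2965 genes (0.506%) were at least 1.5 times higher in cluster 8 than in each of them in both libraries, and 9 (0.304%) were at least 1.5 times lower. The higher genes included Col15a1, Il33, Itih5, Xist, Spry1, Adh1, Cxcl1, Fscn1, Inmt, Gadd45a, Chchd10, Lum, Tob1 and Jup. Lum, the keratan sulfate proteoglycan lumican, was at 46.4 and 51.0 UMIs per 10,000 against 26.8 and 31.9 in cluster 5 and 17.1 and 21.9 in cluster 7. Adh1, an alcohol dehydrogenase that oxidizes retinol, was at 2.61 and 1.76 against 1.24 and 1.17 in cluster 5, and Inmt, a methyltransferase of indoles, at 6.23 and 5.44 against 3.14 and 3.35. The neutrophil chemokine Cxcl1 was at 13.5 and 12.7 in cluster 8, against 8.73 and 5.97 in cluster 5, 8.65 and 7.17 in cluster 6 and 1.80 and 0.919 in cluster 7. Spry1, an inhibitor of receptor tyrosine kinase signalling, was at 1.19 in each library, 2.13 and 2.71 times cluster 5.

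The lower genes were Ogn, Gas1, Tmsb4x, Myl9, Bmpr2, Elovl1, Gsta4, Mnat1 and Emc2. Ogn, which encodes the small proteoglycan osteoglycin, was at 0.870 (0.655 to 1.13) and 0.293 (0.160 to 0.492), against 2.53 and 1.17 in cluster 5 and 2.89 to 4.27 in clusters 6 and 7. Its relative Omd, osteomodulin, had 8 UMIs and 3 UMIs in cluster 8. Gas1, a coreceptor for Hedgehog ligands, was at 0.633 and 1.49, against 2.20 and 2.86 in cluster 5, 3.34 and 4.31 in cluster 6 and 6.32 and 4.88 in cluster 7. Tmsb4x, which encodes the actin-sequestering thymosin beta 4, was at 27.8 and 21.1 against 42.0 and 33.2 in cluster 5. Lumican and osteoglycin thus differed in opposite directions within the same family of small leucine-rich proteoglycans.

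Gene lists put these genes in groups, each counted at 1.5 times in both libraries under that same minimum, beside the shares of all genes given above. Of 10 collagens measured against cluster 5, Col4a1, Col14a1 and Col15a1 were higher and Col8a1 was lower, with a median log2 ratio of 0.26 and 0.22 against -0.06 and -0.08 over all genes. Against cluster 7, 1 of 12 collagens was higher, Col15a1, and 5 were lower. Col1a1 stood at 5.82 and 6.05 in cluster 8 and at 13.1 and 9.84 in cluster 7, and Col3a1 at 4.57 and 3.18 against 11.1 and 8.0, so both of these fibrillar collagens were lower than in cluster 7. Of 21 proteoglycans and matrix glycoproteins, Lum, Mfap4, Fbn1 and Tgfbi were higher and 3 lower than in cluster 5, and against cluster 7 Lum and Sparcl1 were higher and 13 of 26 lower. Matrix proteases and processing enzymes were led by Htra3, the 1 gene of 14 that was higher than in cluster 5, with 0 lower.

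The signalling lists, with few genes measured, each had 0 to 2 genes past 1.5 times against cluster 5, where 1.61% of all genes were higher and 3.75% lower. Of 4 measured Hedgehog pathway genes, 0 were higher and Gas1 and Foxf2 were lower. Ptch1, the receptor and target gene, was at 0.506 (32 UMIs) and 0.419 (20 UMIs) in cluster 8 and at 0.601 and 0.473 in cluster 5. None of the 3 PDGF genes measured passed 1.5 times in both libraries against cluster 5, and Pdgfrb, at 2.53 and 2.20, was below its level in cluster 6 (6.90 and 5.90). In the retinoic acid list, Adh1 and Aldh1a2, the retinaldehyde dehydrogenase that makes retinoic acid, were higher than in cluster 5 among 6 measured and 0 were lower. Aldh1a2 was at 3.70 (3.24 to 4.21) and 2.60 (2.16 to 3.10) in cluster 8, above each stromal cluster in B6129PF1/J (1.42 to 2.00), whereas clusters 6 and 7 of C57BL/6J had 2.42 and 2.45. In the WNT list 0 of 5 were higher and 2 were lower than in cluster 5, and 5 of 6 were lower than in cluster 7. The ligand Wnt5a was at 2.1 and 1.72, against 1.32 and 1.20 in cluster 5 and 0.113 and 0.110 in cluster 6. Of the 8 BMP and TGF-beta genes measured against cluster 5, Tmem100 was higher and 1 was lower. The 2 melanocyte ligands and the 4 complement genes measured gave 0 higher and 0 lower against cluster 5, and in the insulin-like growth factor list Igfbp2 and Igfbp6 were higher among 7. Of 17 mesenchymal transcription factors 0 were higher and 2 were lower than in cluster 5, and of 6 mesenchymal stem cell surface markers 0 were higher and 2 lower.

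Most chemokines and immediate-early genes measured were higher in cluster 8 than in cluster 7. Of 9 chemokines and cytokines measured against cluster 5, Cxcl1, Ccl2, Ccl11 and Il33 were higher and 1 was lower, and against cluster 7 the count was 6 higher of 8 with 0 lower. Ccl11, the eosinophil chemokine eotaxin, was at 11.2 and 6.24, against 5.30 and 3.5 in cluster 5 and 1.80 and 2.21 in cluster 7, but cluster 6 of C57BL/6J had more, at 8.53. Ccl2 came from few cells, with a UMI in 13.8% and 9.38% of the cells of cluster 8. Of 21 immediate-early and stress genes, which rise fast in stimulated or dissociated cells, 16 were higher and 0 lower than in cluster 7, and 1, Gadd45a, was higher than in cluster 5. Jun was at 38.7 and 47.2 in cluster 8, at 33.1 and 37.5 in cluster 5 and at 14 and 10.3 in cluster 7, and Fos at 67.9 and 78.6, 65.7 and 70.4, and 31.9 and 20.4. The part of cell dissociation in these levels was not tested.

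Markers of fibroblast states split along the same lines. Of 8 measured against cluster 5, Apod, Crispld2, Inmt and Lpar1 were higher and 0 lower, and of 12 measured against cluster 7, Inmt was higher and 6 were lower. Lpar1, a receptor for lysophosphatidic acid, was at 2.21 and 2.76 against 1.09 and 1.25 in cluster 5.

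**Figure D3:**
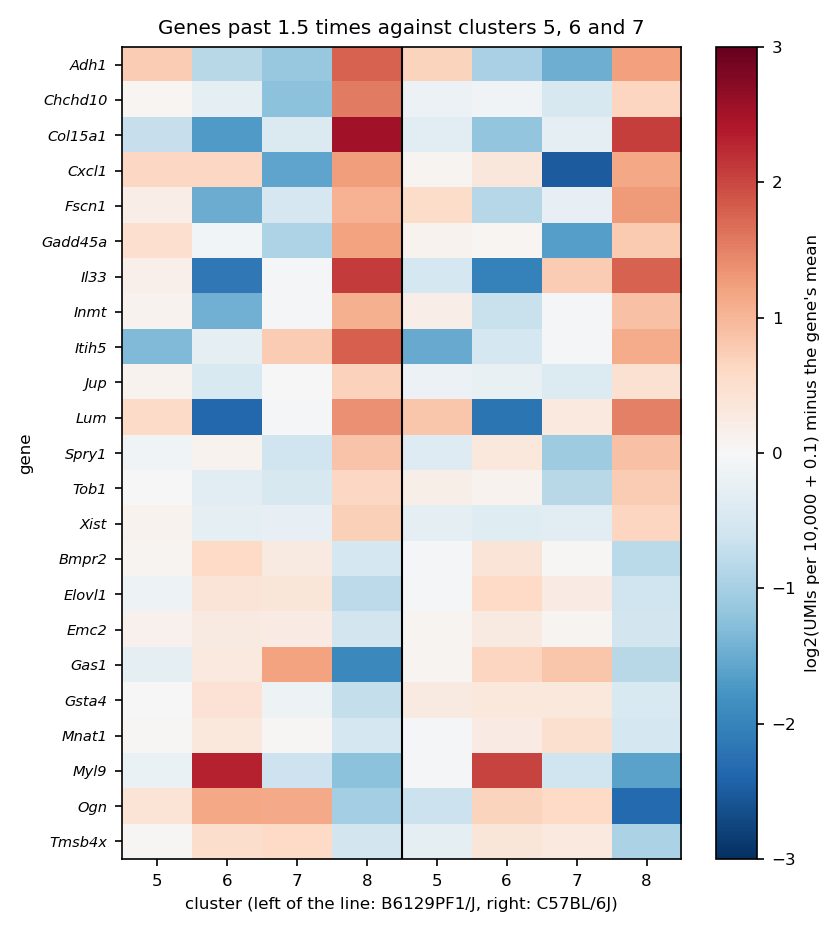
Levels in stromal clusters 5, 6, 7 and 8 of both libraries for genes higher or lower in cluster 8 than in each of the other stromal clusters, each gene as log2(level + 0.1) minus its mean over the columns. The columns of cluster 8 are high for Col15a1, Il33 and Itih5 and low for Ogn and Gas1 in both libraries.

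Xist, the RNA of the inactive X chromosome, was the gene among the higher 15 that reads the sex of the cell, and each library was a pool of a male and a female eye. A cell was called from Xist or from Y-linked Ddx3y, Uty, Kdm5d and Eif2s3y when it had UMIs of only 1 kind. In cluster 8, 125 of 138 called cells of B6129PF1/J had Xist (90.6%, 84.4 to 94.9) and 126 of 135 of C57BL/6J (93.3%, 87.7 to 96.9). In clusters 5, 6 and 7 together the share was 71.6% (68.8 to 74.3) and 71.7% (68.8 to 74.4), and the 12 other clusters ranged from 28.3% to 81.8% and from 15.0% to 82.0%. Cluster 8 therefore had the highest share of Xist cells of all 13 clusters in both libraries, although the intervals of some small clusters, such as cluster 10, reached it. Cells with a Y-linked UMI made up 8.75% (4.87 to 14.2) and 5.63% (2.60 to 10.4) of cluster 8. Not called were 21 and 25 of its cells that had neither, and 476 of 1574 and 539 of 1600 cells of clusters 5 to 7. Over all cells, called or not, Xist alone was found in 125 and 126 of 160 cells of cluster 8. In clusters 5 to 7 it was found in 773 of 1574 and 746 of 1600. The share of called cells is therefore not the share of female cells. Thinned to 1700 UMIs, the share of Xist cells was 93.7% and 97.6% in cluster 8 and 79.6% and 82.1% in clusters 5 to 7. When 2 UMIs were needed for a call, it was 96.8% and 99.2% in cluster 8 and 89.9% and 90.4% in clusters 5 to 7. The gap was then narrower, and all 6 called cells of cluster 10 of C57BL/6J had Xist. In clusters 5 to 7 this rule cut the cells with only Y-linked UMIs from 306 to 84 and from 295 to 73. Those with Xist alone went from 773 to 746 and from 746 to 686, so the rule itself raised the share there. Female and male cells of a library also came from 2 animals and 2 eyes, so sex, animal and eye cannot be told apart.

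**Figure D4:**
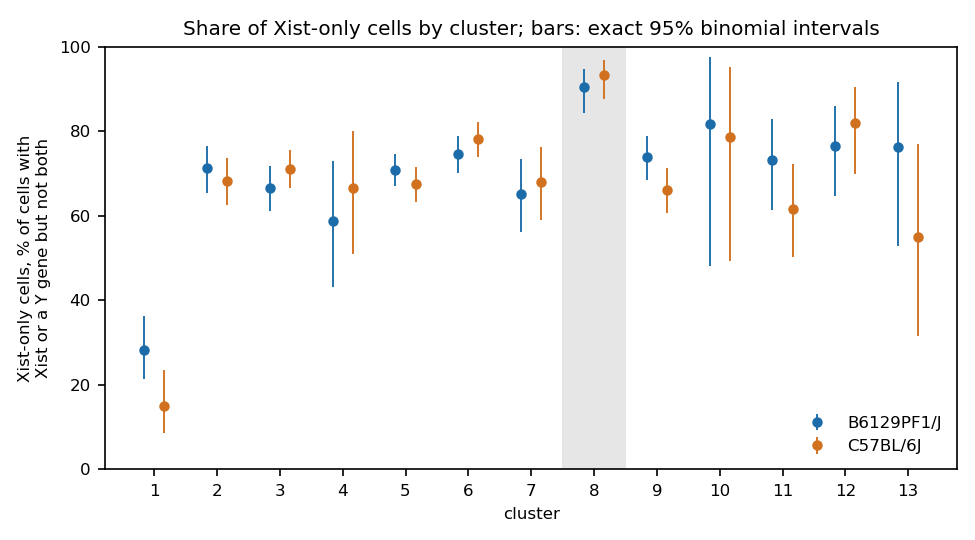
Share of cells with Xist among cells with Xist or a Y-linked gene but not both, in each cluster of both libraries, with exact 95% binomial intervals. Cluster 8, shaded, lies at 90.6% and 93.3%, above the points of the other clusters.

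Col15a1 and Il33 also led cluster 8 when the cells of every cluster were limited to those with Xist alone. Among cells with Xist and no Y-linked UMI, Col15a1 in cluster 8 was 13.6 (9.10 to 21.0) and 4.59 (3.08 to 6.91) times cluster 5, Il33 was 3.85 (3.00 to 4.94) and 7.18 (4.79 to 11) times, and Itih5 was 8.76 (6.47 to 12.0) and 13.2 (7.44 to 24.8) times. Against cluster 7, Itih5 was at 1.82 (1.36 to 2.46) and 1.97 (1.23 to 3.23) times. Cited1 was at 1.76 (0.960 to 3.15) times cluster 5 in C57BL/6J. Itih5 and Cited1 were thus no longer 2 times above each stromal cluster in both libraries. D630003M21Rik was still at least 2 times above each of them in both libraries. Its UMIs in cluster 8 were then 17 and 18, under the minimum of 20. Pdgfra was at 1.57 (1.29 to 1.91) and 0.892 (0.685 to 1.15) times cluster 5 in such cells. Xist itself was then at 0.946 (0.877 to 1.02) and 1.01 (0.927 to 1.11) times cluster 5, against 1.52 and 1.95 over all cells. The few cells with only Y-linked UMIs, 13 and 9 in cluster 8, gave Col15a1 at 1.22 and 1.18, and at 6.36 (1.96 to 18.3) and 25.1 (4.24 to 171) times cluster 5.

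Within cluster 8, Leiden clustering on 3130 genes gave 4 subgroups, each found in both libraries. Xist, the Y-linked genes named above, and mitochondrial and ribosomal protein genes were left out, while other X-linked genes were kept. The first principal component held 1.28% of the variance, so these were weak divisions. They are numbered by size, and the genes below are what set them apart, given as description. Subgroup 1 (58 and 57 cells) had more Spp1, the secreted phosphoprotein osteopontin, at 39.8 and 27.2 UMIs per 10,000 against 10.5 and 9.16 in the rest, and more Itih5, at 5.03 and 3.43 against 1.94 and 0.971. Subgroup 2 (52 and 48 cells) had more of the interferon-induced genes Ifit1, at 2.05 and 7.00 against 0.809 and 1.60, Isg15 and Irgm1, and of the early genes Nr4a2 and Maff. Subgroup 3 (45 and 48 cells) had more Cdkn1a, the cell cycle inhibitor p21, at 4.40 and 9.28 against 2.08 and 3.03, and its median cell had 2770 and 2327.5 UMIs, the fewest of the subgroups.

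Subgroup 4, of only 5 and 7 cells, carried nearly as much Apod as the rest of cluster 8 together. Its Apod level was 408 and 329 against 14.5 and 15.9 in the other cells, and it held 47.4% and 49.0% of the cluster's Apod UMIs. Dcn, the proteoglycan decorin, was at 312 and 370 against 65.9 and 77.1. Without these cells Apod in cluster 8 stood at 4.40 and 4.08 times the whole of cluster 5, in place of 8.12 and 7.64. They held 0 of the Il33 UMIs in either library, and 10 of 158 and 2 of 87 Col15a1 UMIs.

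Between the libraries, 163 of 4370 genes (3.73%) were at least 2 times higher in cluster 8 of B6129PF1/J and 74 (1.69%) in that of C57BL/6J, each with at least 20 UMIs in the higher library. In clusters 5, 6 and 7 these shares were 1.64% and 1.70%, 1.56% and 1.89%, and 3.6% and 2.25%. Of the 163 genes, 19 were also at least 1.5 times higher in each of clusters 5, 6 and 7 of B6129PF1/J, and 106 were under 1.5 times in each of them. Of the 74 genes, 10 and 41 fell in these classes. The ratio's counting interval included 1 for 46 of the 237 genes, 40 of the 163 and 6 of the 74. Of these, 33 were among the 106 and 2 among the 41. Cluster 8 held 632208 UMIs in B6129PF1/J against 477603 in C57BL/6J, so 20 UMIs were a lower level in B6129PF1/J. The part of depth in these counts was not tested. Genes that differed in all stromal clusters included Gm10116, at 22.5 in B6129PF1/J against 0.482 in C57BL/6J, or 46.7 times (31 to 74.0), and Gm10709, at 41.0 times (13.8 to 201, from 3 UMIs in C57BL/6J). Gm5900, Gm10093 and Gm17300 had 38, 32 and 29 UMIs in B6129PF1/J and 0 in C57BL/6J, so they were at least 9.57-fold, 8.06-fold and 7.30-fold higher, taking 3 counts per library as the floor. Gene models with such names often share reads with near-identical copies, and their counts are uncertain.

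Genes with established names also stood apart. Cmklr1, the chemerin receptor, had 20 UMIs and 0 UMIs, at least 5.04-fold more in B6129PF1/J. Rbp4, the plasma retinol carrier, Itsn1 and Lpl, lipoprotein lipase, had 29, 24 and 22 UMIs against 1 each, with ratios of 21.9 (3.63 to 895), 18.1 (2.96 to 746) and 16.6 (2.69 to 686). Rbp4 and Lpl were higher in B6129PF1/J in all stromal clusters, and Itsn1 was not. Ly6a, which encodes the stem cell antigen SCA-1, was at 0.569 in B6129PF1/J and 1.99 in C57BL/6J, 3.49 times, and was also higher in C57BL/6J in the other stromal clusters. Stk25, Mid1, 4833420G17Rik and Ifi47 were 3.97, 3.66, 3.64 and 3.47 times higher in C57BL/6J. Col15a1, Il33, Itih5 and Pdgfra are not among these 237 genes, with levels under 2 times apart. Without the 5 cells of each library richest in RPE markers, the counts were 153 and 77.

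Bulk averages carry these genes into 2 perturbations, as the authors' mean FPKM (fragments per transcript length and sequencing depth) with no spread between samples, so no test was possible. In whole tissue, fewer cells of a type and less RNA per cell cannot be told apart, and cell types other than cluster 8 express most of these genes too. Over the 11411 genes with at least 1 FPKM, 248 (2.17%) were at least 1.5 times higher and 289 (2.53%) at least 1.5 times lower in the Ihh iΔEC/iΔEC average. Of the 6 genes set apart in cluster 8, 5 could be measured, of which 0 were higher and 3 were lower, Col15a1 (7.91 FPKM in controls, 4.43 after deletion), D630003M21Rik (3.70 and 1.76) and Cited1 (47.5 and 31.4). Il33 was at 5.84 and 5.00, and Itih5 at 1.69 and 1.18. The median log2 ratio of the 5 was -0.59 against -0.04 over all genes. Cited1 was highest in melanocyte cluster 10 of the single-cell libraries, and the part of cluster 8 in its tissue average was not tested.

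The marker genes Pdgfra, Cpxm1 and Gli1 were lower after the deletion as well. Gli1 went from 9.40 to 3.15 FPKM, Cpxm1 from 18.3 to 8.37 and Pdgfra from 11.1 to 7.25. Ptch1 and Hhip, the other readouts of the pathway, went from 7.69 to 4.98 and from 1.05 to 0.346. In the Hedgehog list 5 of 12 measured genes were at least 1.5 times lower, Gli1, Ptch1, Hhip, Foxf2 and Ihh itself, and Gas1 and Foxf1 were higher. Among the 15 genes higher in cluster 8 at 1.5 times, Col15a1, Inmt and Lum were lower, and Cxcl1 and Xist were among those higher. Lum went from 74.0 to 38.7 FPKM, Inmt from 50.6 to 32.5, and Cxcl1 from 3.28 to 5.64. Apod, Crispld2 and Htra3, higher in cluster 8 than in cluster 5, went from 107 to 42.9, from 43.1 to 22.8 and from 7.99 to 4.46. Apod and Htra3 were less than 1.5 times apart between clusters 8 and 7. Of 14 measured collagens 5 were at least 1.5 times lower and 0 higher. Of 27 proteoglycans and matrix glycoproteins 5 were lower and 0 higher. Of 25 mesenchymal transcription factors 6 were lower and 1 higher, against 2.53% and 2.17% of all genes. Whether the lower values were particular to cluster 8 was not tested. Xist was at 6.18 and 13.6 FPKM, while Y-linked Ddx3y was at 6.5 and 3.39 and Uty at 1.27 and 0.642, and the part of the sex of the animals in the other ratios was not tested. Jun and Fos were also lower after deletion, at 62.3 and 18.7 and at 102 and 32.2 FPKM.

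In the cultured GLI1+ cells, 143 of 10325 genes (1.38%) were at least 1.5 times higher and 253 (2.45%) at least 1.5 times lower with SAG. Of the 6 genes of cluster 8, 3 could be measured and 0 passed that fold. Il33 was at 9.10 FPKM with DMSO and 9.77 with SAG, Itih5 at 7.79 and 6.54, and D630003M21Rik at 1.58 and 2.31. Col15a1, at 0.151 and 0.119 FPKM, was below the minimum of 1 FPKM in culture, although it leads cluster 8 in tissue. The Hedgehog readouts were higher with the agonist, with Gli1 at 0.0280 and 3.65, Ptch1 at 1.13 and 10.1 and Hhip at 0.368 and 1.28 FPKM. Cpxm1 was 2.23 times higher with SAG, at 20.3 and 45.2, whereas Pdgfra was at 39.2 and 28, under 1.5 times lower. Of 13 measured genes of the list at 1.5 times, Spry1 was higher (22.8 and 39.7) and Cxcl1 lower (16.1 and 10.4). Cxcl10, Ccl2 and Ccl7 were also lower, and Gas1 went from 164 to 85.3 FPKM.

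**Figure D5:**
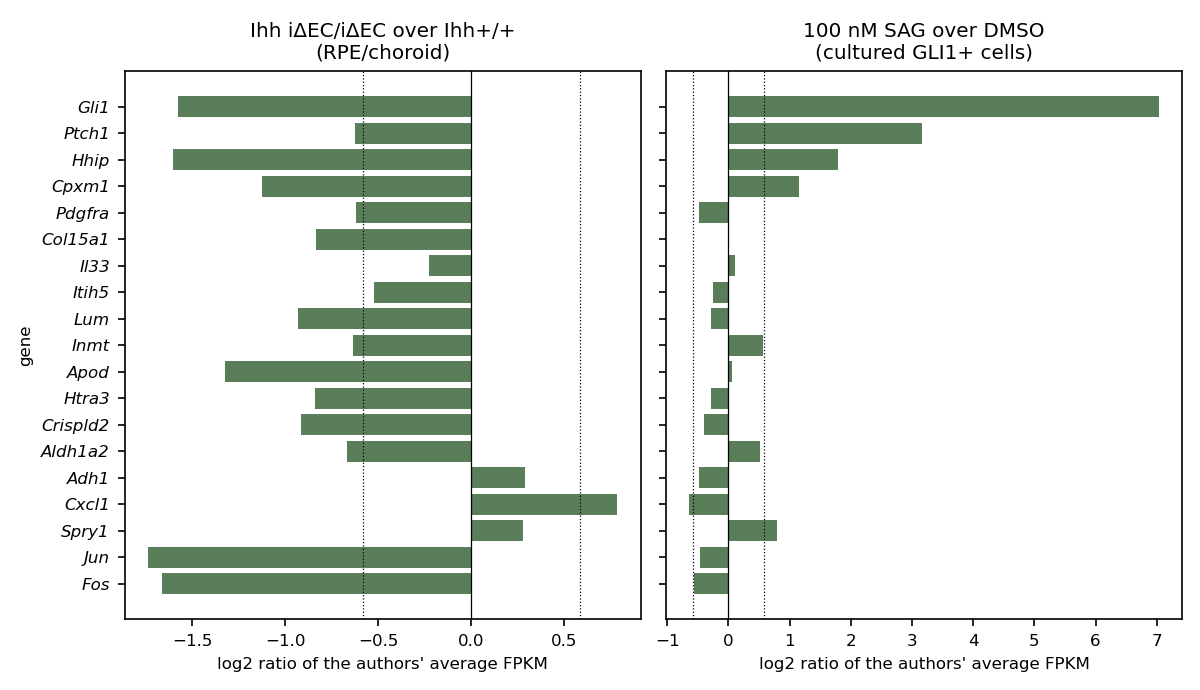
The log2 ratio of the authors' mean FPKM, Ihh iΔEC/iΔEC to Ihh+/+ RPE/choroid and SAG to DMSO in GLI1+ cells, for genes of cluster 8; dotted lines mark 1.5 times and no bar is drawn for a gene under 1 FPKM, such as Col15a1 in culture. Gli1 and Cpxm1 lie below 0 after the deletion and above 0 with SAG, while Il33 stays within the dotted lines in both.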

How the data were processed

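The scRNAseq counts were deposited by the authors as raw UMI counts per gene and cell, made with Cell Ranger on mm10 and kept after their filters on UMIs, genes and mitochondrial share, which removed none of the deposited cells when applied again. The lowest count of a cell was 1959 UMIs in B6129PF1/J and 1717 in C57BL/6J. The deposited cells are fewer than the paper reports, and the numbers per cluster differ from its own. The cluster numbers and the fraction of mitochondrial UMIs per cell were deposited by the authors (Seurat 2.1). The deposited cluster averages have a natural log scale and matched the mean over cells of ln(1 + UMIs per 10,000) with a median ratio of 1.00 and 0.990 in cluster 8. They served only as an alternative. For bulk RNAseq, the authors deposited FPKM from STAR and Cufflinks as group averages. The deposited fold changes and adjusted p-values (between clusters and between bulk groups) were not used. Libraries held 17168578 and 15230413 UMIs over 16426 genes in B6129PF1/J and C57BL/6J.

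UMIs were summed per cluster and library and expressed per 10,000. Bulk genes needed 1 FPKM in the higher group and were counted at 1.5 times, with no pseudocount. Depth in reads behind the FPKM values is unknown. The planned limma test needs values of single samples, which the bulk tables do not hold. Subgroups came from Leiden clustering (resolution 0.5, 10 principal components, 15 neighbours, values centred within each library). The tools were matplotlib 3.10.9, leidenalg 0.10.2, scanpy 1.11.5 and scipy 1.17.1, run with Python 3.11.15, pandas 2.3.3 and numpy 2.4.6. The counting rules were run on simulated Poisson counts per cluster. These lack the clumping of UMIs in few cells seen here, so that run does not cover it. Coordinates are those of GENCODE, and promoters those of RefSeq, both on GRCm38, the assembly that mm10 names. Genes were named by rule: the markers, the genes leading cluster 8, up to 15 higher and 10 lower than in the other stromal clusters, 2 to 4 per list, 5 per direction between strains, and up to 5 per direction in bulk. Genes of single-cluster contrasts and subgroups were named after their values were seen. The members and gene lists were chosen with earlier results of these data known. A result of 1 gene is not reported here.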

Additional observations from a re-analysis of the deposited data

Results flagged for a closer look

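In 8 comparisons of cluster 8 with another stromal cluster the libraries went opposite ways by at least 1.5 times each, in genes of the lists. The values given are the ratio in B6129PF1/J divided by that in C57BL/6J, and the difference between the libraries was not tested. Igfbp2, an insulin-like growth factor binding protein, was 3.97 times (2.41 to 6.76) cluster 7 in B6129PF1/J and 0.206 times (0.150 to 0.279) in C57BL/6J, a 19.2-fold difference. Its level in cluster 8 was 1.03 and 1.05, while cluster 7 had 0.259 and 5.07, so the libraries differed in cluster 7.

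The other 7 involve RPE transcripts. Ptgds, prostaglandin D2 synthase, differed 3.17-fold against cluster 5 (1.80 and 0.568 times), 6.19-fold against cluster 6 and 8.98-fold against cluster 7. Ttr, transthyretin, differed 4.72-fold against cluster 6 and 5.97-fold against cluster 7, and Rgr and Rpe65, of the visual cycle, differed 3.49-fold and 4.03-fold against cluster 6. In B6129PF1/J, 5 cells of cluster 8 held 72.8% of its Ptgds UMIs and 78.9% of its Rpe65 UMIs. The 5 cells richest in RPE markers in each library were then left out of cluster 8 only. Ttr, Rgr and Rpe65 are among the markers that chose these cells, and the other clusters kept all their cells. This step therefore favours lower ratios, and the values below do not settle why the libraries differed. Ptgds was at 0.508 (B6129PF1/J) and 0.440 (C57BL/6J) times cluster 5, 0.667 and 0.296 times cluster 6, and 1.04 and 0.317 times cluster 7. Ttr was at 0.582 and 0.256 times cluster 6, and 0.992 and 0.346 times cluster 7. Against cluster 6, Rgr was at 0.613 and 0.443 times and Rpe65 at 0.448 and 0.307 times.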

How the results depend on the processing

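Of the values recomputed under an alternative, 60 stayed within 1.5 times (counts of genes or subgroups) or within their counting interval (shares and ratios), and 37 did not. No ratio beyond counting error turned, but those of Cpxm1 (0.984) and Gli1 (0.867) in B6129PF1/J went below 1 after thinning. The genes leading cluster 8 (2) became 11 at 1.5 times and 0 at 3 times, 5 with a minimum of 10 UMIs and 15 with none, 1 on the deposited averages, where Col15a1 was lost, and 8 and 4 with B6129PF1/J or C57BL/6J alone. The genes higher than in each other stromal cluster (6) became 24 and 2 at these folds, 14, 3 and 63 with 10, 50 and no minimum UMIs, 3 with cells thinned to 1700 UMIs and 25 with B6129PF1/J alone. Slc1a3, D630003M21Rik and Cited1 were the genes lost after thinning. The genes lower (2) became 18 and 0 at these folds, 15 with 10 UMIs and 207 with no minimum, and 60 and 46 with B6129PF1/J or C57BL/6J alone. The 237 genes apart between strains became 902 and 58 at these folds, 727 and 38 with 10 and 50 UMIs, and 146 after thinning. Of stromal cells only, cluster 8 held 9.23% and 9.09%. The share of Xist cells was 96.8% and 99.2% when 2 UMIs were needed, and 97.6% in C57BL/6J after thinning. Subgroups numbered 2 and 9 at resolutions 0.3 and 1.0. After Ihh deletion, the genes past the fold (3) became 1 at 2 times, 1 among the leading genes and 6 in the list at 1.5 times, which gave 2 with SAG (0); that list, like the values in cells with Xist alone, without subgroup 4 or without RPE-rich cells, was chosen after seeing the data. Counts of called genes thus depend on the fold and minimum chosen, and depth limits Gli1, with 23 and 9 UMIs in cluster 8. No paired analysis was possible because the bulk tables hold only group averages; limma, the replicate block and leaving out each sample were not run.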
